A study of Homo sapiens with 4 samples.

Results

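Long noncoding RNAs are transcripts that work without being translated, and 10 well-known human genes of this class were followed here: MALAT1, NEAT1, MIAT, HOTAIR, HOTTIP, GAS5, SNHG1, DANCR, PVT1 and NBAT1. The members were picked by name, and every probe whose array annotation is a RefSeq transcript of one of them was used, which gave 57 probes for 10 of the 20501 genes with a RefSeq symbol on the array. The RNA came from MCF-10A, a non-tumorigenic human line of mammary epithelial cells. The cells were given a stapled peptide, a short helix held in shape by a chemical bridge, in a study of peptides built to block the binding of BIG3 to PHB2. The paper states that the arrays were meant to clarify off-target effects of such a peptide in normal cells. It describes MCF-10A cells as not expressing BIG3. One Agilent single-colour array was hybridized for each of 4 conditions: stapled-peptide for 24 h, non-specific stapled-peptide for 24 h, stapled-peptide for 48 h and non-specific stapled-peptide for 48 h, each at 10 µM. All 4 arrays lay on the same slide and were scanned together. The labels do not say which named peptide of the study each one is, and they also mark the non-specific stapled-peptide as the control treatment, so values are given by label. With 1 array per condition no test was made and no p-value is given, and precision is limited by this small number of arrays.

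Several of these RNAs stay in the nucleus. MALAT1 collects in nuclear speckles, bodies rich in splicing factors, and NEAT1 is the RNA on which paraspeckles are built. HOTAIR and HOTTIP are made inside HOX gene clusters and bind chromatin-modifying complexes, whereas GAS5, SNHG1 and DANCR carry small nucleolar RNAs (snoRNAs, guides for the modification of ribosomal and other small RNAs) in their introns, and the spliced remainder of GAS5 and SNHG1 is broken down by nonsense-mediated decay. PVT1 lies beside the MYC oncogene.

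A signal is the log2 of the background-subtracted spot brightness after quantile normalization over the 4 arrays, and a difference at a given time was taken on this scale as non-specific stapled-peptide less stapled-peptide, so a positive value is a higher level under the former. A probe was counted past 2-fold when the difference was at least 1 in size. Where the scanner software marked a probe as well above background on a single array of the pair, the difference is a bound, and where it marked neither, no difference was given. Each member probe had 1 spot per array. Probes printed 10 times on each array gave the spot error, which made the SD of a difference 0.47 for signals below 6, 0.12 from 6 to 9, 0.08 from 9 to 12 and 0.07 above that. This error does not hold the spread between cultures.

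The array of cells given non-specific stapled-peptide for 48 h, the 48 h non-specific array below, stood apart from the rest. It correlated with the other arrays at Pearson's r of 0.799 to 0.807 over probes, against 0.976 to 0.978 among the other 3. All 10 basal mammary epithelial marker genes, which MCF-10A cells are known for, were lower on it than with stapled-peptide at 48 h, by a median difference of -7.14. Their mean signal was 11.3 to 11.4 on the other arrays and 5.30 on this one, with 9 of 10 still well above background. Of 6 embryonic and kidney line markers, 4 were higher on it, among them BEX2 by at least 10.38 and LIN28B by at least 8.98. The remaining markers of that list, PAX8 and PAX2, were lower at their brightest probes, at -0.95 and a bound of -0.59. Another PAX2 probe gave 3.89. The mean signal of the list was 3.97 to 4.28 on the other arrays and 10.6 here. The mesenchymal and fibroblast list (mean signal 3.48 here, 5.44 to 5.50 elsewhere), the endothelial list (3.51 here, 6.04 to 6.33 elsewhere) and the blood list (5.46 here, 5.74 to 5.94 elsewhere) had lower means on it. In the luminal list the mean was 5.55 here and 5.32 to 5.71 elsewhere, and PGR was dim on all 4 arrays. FOXA1 was higher here, by a difference of 1.31, while GATA3 and ESR1 differed by -0.31 and -0.15. The pan-epithelial list had a mean of 8.26 here and 9.07 to 9.40 elsewhere. KRT8 and KRT18 were bright on all arrays and lower here, by differences of -2.79 and -2.34. CDH1 and EPCAM had signals of only 4.86 to 5.58 on the other 3 arrays. Here CDH1 read 5.13, a difference of -0.31. EPCAM read 6.46 here, a difference of 0.88, and of 1.01 from 24 h with non-specific stapled-peptide. On that array the labelled cell type is thus not borne out by its basal markers, and their part in any difference of a long noncoding RNA was not tested. The comparisons that leave that array out are the peptides at 24 h and stapled-peptide at 48 h against 24 h, and their values are given beside those at 48 h for each member. In bulk RNA, fewer cells that hold a transcript and less of it per cell cannot be told apart.

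The start regions of the snoRNA hosts and of MALAT1 are shown because these genes gave the widest contrast of behaviour among the bright probes: SNHG1 changed most, GAS5 and DANCR hardly, and MALAT1 differently at its own probes. Each sequence is RefSeq's window of 250 bases before to 50 after an annotated start, read on the gene's strand from the table for GRCh38.p14, and 7 of the 10 members had an entry. Capitals mark 3 motifs on either strand. They are the letters of the CCAAT box, those of the GC box, read as GGGCGG, and those of a TATA-like box, read as TATAAA. No match overlapped another in these windows.
SNHG1, chr11:62855836-62856135, minus strand: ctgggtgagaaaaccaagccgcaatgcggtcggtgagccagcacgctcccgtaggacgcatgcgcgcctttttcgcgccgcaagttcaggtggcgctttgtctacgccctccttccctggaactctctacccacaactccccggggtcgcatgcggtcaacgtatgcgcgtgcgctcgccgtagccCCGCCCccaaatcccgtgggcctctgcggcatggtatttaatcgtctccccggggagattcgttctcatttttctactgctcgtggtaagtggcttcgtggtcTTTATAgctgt
GAS5, chr1:173868996-173869295, minus strand: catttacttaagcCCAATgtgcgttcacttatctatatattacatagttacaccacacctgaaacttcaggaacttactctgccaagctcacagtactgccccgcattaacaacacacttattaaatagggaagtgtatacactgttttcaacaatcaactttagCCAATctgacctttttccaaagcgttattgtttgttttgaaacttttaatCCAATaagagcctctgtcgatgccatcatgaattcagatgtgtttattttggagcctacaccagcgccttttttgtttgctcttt
DANCR, chr4:52712144-52712443, plus strand: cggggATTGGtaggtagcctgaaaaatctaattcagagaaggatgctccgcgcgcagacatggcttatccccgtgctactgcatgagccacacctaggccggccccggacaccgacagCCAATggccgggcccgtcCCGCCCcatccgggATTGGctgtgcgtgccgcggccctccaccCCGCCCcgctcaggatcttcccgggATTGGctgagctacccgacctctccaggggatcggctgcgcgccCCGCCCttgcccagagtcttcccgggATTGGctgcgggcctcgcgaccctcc
MALAT1 first start, chr11:65497488-65497787, plus strand: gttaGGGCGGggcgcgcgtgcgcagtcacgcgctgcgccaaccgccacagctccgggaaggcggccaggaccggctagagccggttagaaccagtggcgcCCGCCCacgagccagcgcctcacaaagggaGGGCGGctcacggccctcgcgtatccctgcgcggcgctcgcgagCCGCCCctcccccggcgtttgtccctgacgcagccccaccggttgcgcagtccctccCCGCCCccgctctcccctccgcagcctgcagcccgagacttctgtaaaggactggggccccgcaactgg
MALAT1 second start, chr11:65498795-65499094, plus strand: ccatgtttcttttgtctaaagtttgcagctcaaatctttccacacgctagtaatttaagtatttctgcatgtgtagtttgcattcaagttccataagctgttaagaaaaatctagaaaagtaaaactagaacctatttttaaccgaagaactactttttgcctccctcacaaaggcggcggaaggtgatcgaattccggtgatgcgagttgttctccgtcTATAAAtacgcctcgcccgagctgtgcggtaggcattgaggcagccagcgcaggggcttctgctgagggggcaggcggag

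SNHG1 held 1 GGGCGG and 1 TATAAA match, the latter after the annotated start. GAS5 held 3 CCAAT matches, and DANCR held 5 CCAAT and 3 GGGCGG. At MALAT1 the first start held 5 GGGCGG matches and the second held 1 TATAAA. The windows thus differ in kind, also in their GC content, which was 60.0% for SNHG1, 37.7% for GAS5, 67.7% for DANCR, and 73.7% and 46.0% for the starts of MALAT1, against a median of 58.7% over all windows. Of 35116 windows of that length, 34.6% held CCAAT, 45.0% GGGCGG and 11.5% TATAAA, so none of these letters is rare. A match is a description of the sequence and not a binding site.

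Across the 10 genes, the arrays for the peptides differed little at 24 h and widely at 48 h. The comparison at 48 h includes the 48 h non-specific array, so peptide and array cannot be told apart in it. At 24 h, 1 of 46 member probes with a difference (2.17%) was past 2-fold, where the share over all 32921 probes was 3.14%. At 48 h it was 17 of 45 (37.8%), and the share over all 35560 probes was also 37.8%. The members as a group therefore moved about as often as any probe on the array. Of the 17 probes, 6 were higher (13.3% of 45) and 11 lower (24.4%) with non-specific stapled-peptide, where all probes gave 19.4% higher and 18.4% lower, and all 1559 probes of RefSeq long noncoding RNA genes gave 24.4% higher and 18.2% lower. Without normalization between arrays the split was 9 higher and 10 lower for the members, and the higher share of all calls moved from 51.4% to 63.2%. The median size of a difference was 0.59 for members and 0.77 for all probes at 48 h, and 0.15 and 0.14 at 24 h. Of the 57 probes, 10 were dim on all 4 arrays. Among the 39 that were well above background on all of them, 25 (64.1%) had a signal on the 48 h non-specific array that lay farther from the other 3 arrays than those lay from each other, and 71.7% of 25780 probes did.

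**Figure D1:**
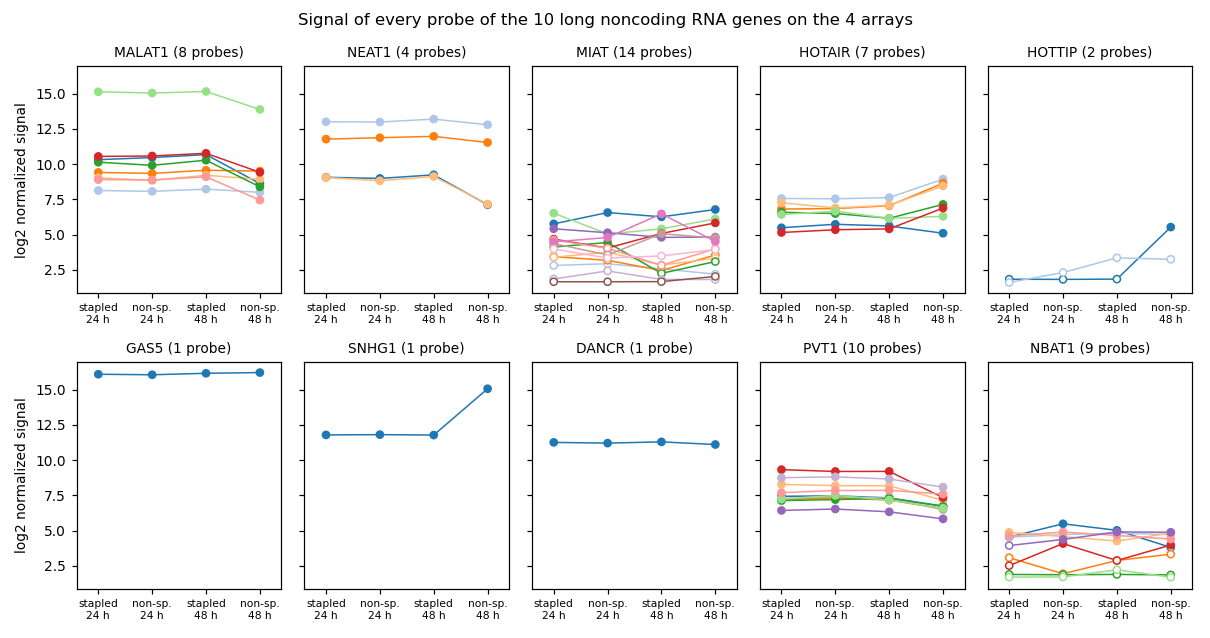
Log2 quantile-normalized signal (vertical axis) on each of the 4 arrays (horizontal axis) for every probe of the 10 genes, 1 line per probe; filled points are well above background and open points are not. Lines are flat over the first 3 arrays for bright probes, and the last array takes SNHG1 up to 15.06 and several MALAT1 and NEAT1 probes down, while GAS5 stays between 16.05 and 16.20.

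MALAT1, the long unspliced RNA of nuclear speckles, was read by 8 probes to the same transcript (NR_002819), all well above background on all 4 arrays. The brightest, A_21_P0010981, had signals of 15.13 (stapled-peptide) and 15.04 (non-specific stapled-peptide) at 24 h, and of 15.15 and 13.88 at 48 h, a 2.42-fold lower level. A_19_P00324839 read 10.32, 10.47, 10.68 and 8.62 in the same order of arrays, which is 4.15-fold lower at 48 h. Only the last array was low at either probe. A_21_P0010980 (10.14, 9.92, 10.28 and 8.39), A_21_P0010982 (10.55, 10.58, 10.77 and 9.42) and A_24_P873659 (8.90, 8.88, 9.10 and 7.45) were lower at 48 h by 3.70-fold, 2.54-fold and 3.14-fold. The remaining 3 probes of this transcript did not share that drop. A_19_P00805006 read 9.41, 9.34, 9.57 and 9.51, A_19_P00809614 read 9.03, 8.86, 9.21 and 8.92, and A_19_P00325158 read 8.13, 8.07 and 8.23 on the first 3 arrays. Their differences at 48 h were -0.06, -0.28 and -0.23, in that order. Of the 8 probes, 5 were thus past 2-fold and 3 were not, with a gap between 2 sets of values (-2.05 to -1.27 and -0.28 to -0.06) that is many times the spot error of 0.07 to 0.12.

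The array comparisons that leave out the divergent library gave small values for MALAT1. At 24 h the peptide differences of the 8 probes ran from -0.22 to 0.15. Between 24 h and 48 h with stapled-peptide all 8 were positive, from 0.02 to 0.36.

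NEAT1, the scaffold of paraspeckles, is made as a short and a long transcript that share their 5′ end, and its 4 probes (annotated to NR_028272) split evenly. A_19_P00318409 had signals of 9.07, 8.99, 9.24 and 7.12 and was 4.34-fold lower at 48 h, and A_21_P0011024 had 9.05, 8.82, 9.12 and 7.16 and was 3.89-fold lower. A_19_P00321332 read 13.00, 12.99, 13.19 and 12.79, and A_19_P00321333 read 11.77, 11.87, 11.97 and 11.53. The 48 h non-specific array was the lowest of the 4 at every NEAT1 probe, but past 2-fold at only 2 of them. The differences of the other 2 were -0.40 and -0.44. At 24 h the 4 differences ran from -0.24 to 0.10, and over time with stapled-peptide from 0.07 to 0.20. The files do not give the position or strand of a probe, so which of the NEAT1 or MALAT1 probes lie near each other, which NEAT1 transcript they read, and whether any reads the antisense strand, was not tested.

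MIAT, a nuclear RNA named for an association with myocardial infarction, had faint signals. Of its 14 probes to 3 RefSeq transcripts, 6 were dim on all 4 arrays and 4 were well above background on all of them. A_19_P00322900 read 4.48, 4.80, 6.47 and 4.51 (stapled-peptide and non-specific stapled-peptide at 24 h, then at 48 h), so it was the stapled-peptide array at 48 h that stood out, and the peptide difference at 48 h was -1.96. A_19_P00321067 read 6.53, 5.04, 5.41 and 6.12, with the stapled-peptide array at 24 h the highest, and a difference of -1.48 at 24 h and 0.71 at 48 h. It was the only member probe past 2-fold at 24 h. A_19_P00315524 (5.76, 6.57, 6.26 and 6.78) and A_19_P00322571 (5.42, 5.13, 4.81 and 4.82) stayed within 2-fold in both peptide comparisons. Of the remaining probes, 2 had a difference at 48 h, 0.75 at A_19_P00321068 and -0.30 at A_19_P00322828. Over all 8 MIAT probes with a difference at 24 h, the values ran from -1.48 to 0.80. No 2 MIAT probes passed 2-fold in the same peptide comparison, and most of their signals lie below 6, the range with the widest spot error.

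**Figure D2:**
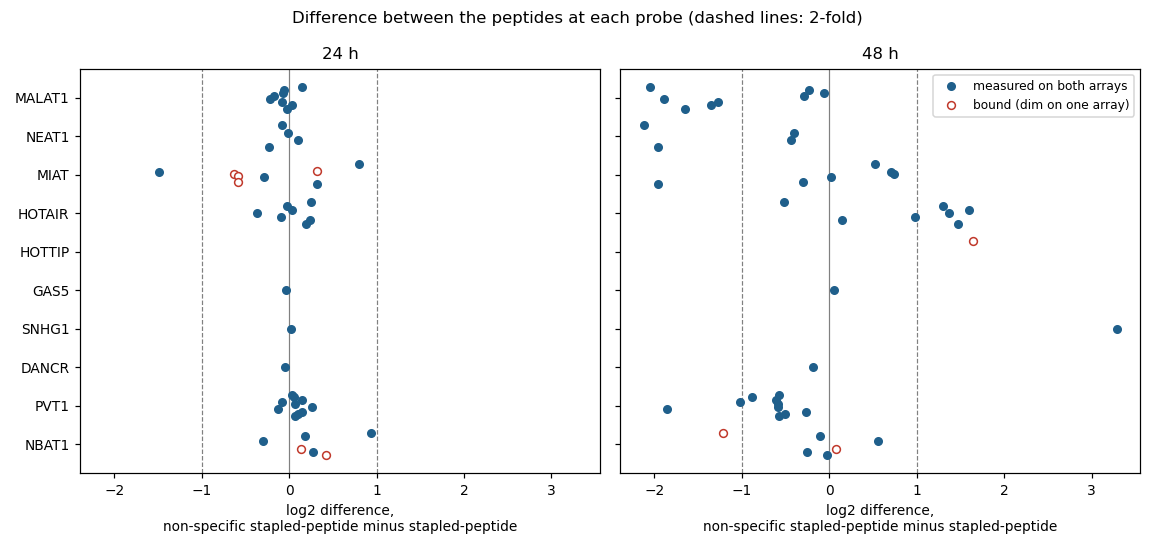
Log2 difference between the peptides (horizontal axis) for every member probe with a difference, by gene (vertical axis), at 24 h (left) and 48 h (right); open red points are bounds and dashed lines mark 2-fold. At 24 h 1 MIAT probe lies past 2-fold, whereas at 48 h the probes of MALAT1, NEAT1 and PVT1 lie left of 0, SNHG1 lies at 3.29, and MALAT1 and NEAT1 each show a gap between 2 groups of probes.

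HOTAIR is transcribed from the HOXC cluster and is known to bind the Polycomb complex PRC2 and the LSD1-CoREST complex. Its 7 probes, all to NR_003716, were well above background on every array. A_19_P00329806 read 7.56, 7.54, 7.63 and 8.93, A_19_P00330464 read 6.81, 6.85, 7.05 and 8.65, and A_19_P00330814 read 7.26, 6.90, 7.09 and 8.45. At A_32_P168442 the signals were 5.15, 5.35, 5.41 and 6.88. The last array was the high one at each of these 4 probes, with differences at 48 h of 1.31, 1.60, 1.37 and 1.48. A_21_P0010502 (6.59, 6.50, 6.16 and 7.14) was just short of 2-fold at 0.98. The other 2 probes did not follow: A_21_P0010503 read 6.43, 6.66, 6.15 and 6.30 (0.15), and A_19_P00326808 read 5.49, 5.73, 5.61 and 5.10 (-0.52). The median over the 7 probes was 1.31 at 48 h. At 24 h the values ran from -0.36 to 0.25, and over time with stapled-peptide from -0.43 to 0.26, with none past 2-fold.

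HOTTIP, at the far end of the HOXA cluster, is known to bind WDR5, a part of histone methyltransferase complexes. Both probes, to NR_037843, were dim on the first 3 arrays. A_21_P0000690 read 1.84, 1.83, 1.85 and 5.53 and was well above background only with non-specific stapled-peptide at 48 h, which made it at least 3.13-fold higher there than with stapled-peptide. A_21_P0010497 (1.61, 2.31, 3.35 and 3.25) was not well above background on any array. HOTTIP thus rests on 1 probe on 1 array and had no difference in the comparisons that leave this array out. With the normexp background correction its bound was 0.58 on the log2 scale, under 2-fold. That setting adds an offset of 50 to every signal before the log2, which shrinks differences between dim signals. It therefore cannot decide whether the HOTTIP call holds.

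GAS5, SNHG1 and DANCR each had a single probe, bright on all arrays. GAS5, first found among genes expressed in growth-arrested cells, read 16.08, 16.05, 16.15 and 16.20 at A_33_P3326285. DANCR, a host gene named as an antagonist of differentiation, read 11.25, 11.20, 11.29 and 11.10 at A_24_P902052. Neither moved by more than 0.19 between the peptides at either time. SNHG1 read 11.78, 11.80, 11.77 and 15.06 at A_24_P785293. The first 3 arrays lay within 0.03 of each other, and the last was 9.75-fold higher than stapled-peptide at 48 h, a difference of 3.29. This was the largest difference of any member, and without that array SNHG1 differed by 0.02 between the peptides at 24 h and by -0.01 between times with stapled-peptide. SNHG1 differed past 2-fold where GAS5 and DANCR did not under all 4 of the scalings and background corrections tried, from 3.02 to 3.35.

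PVT1, next to MYC, had 10 probes to NR_003367, all well above background on every array, and all 10 were lower at 48 h with non-specific stapled-peptide. A_19_P00322939 read 9.32, 9.19, 9.19 and 7.34, a difference of -1.86. A_19_P00320749 read 8.27, 8.18, 8.17 and 7.15, a difference of -1.02, and these were the probes past 2-fold. At the other 8 probes the difference lay between -0.88 and -0.27. The smallest was at A_21_P0005949, which read 7.68, 7.84, 7.85 and 7.58. The median of the 10 was -0.59, or -0.22 without normalization between arrays. At 24 h the same probes ran from -0.13 to 0.26, and over time with stapled-peptide from -0.12 to 0.17. MYC itself, at its only probe, read 12.43, 12.54, 12.52 and 12.81, a difference of 0.29 at 48 h.

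NBAT1, a transcript named for neuroblastoma, had faint signals, with 3 of 9 probes (NR_034143) dim on all 4 arrays and 3 well above background on all. A_19_P00315482 read 4.54, 5.48, 5.01 and 3.80, was dim only on the last array, and gave a bound of -1.21 at 48 h. The same probe differed by 0.94 at 24 h and by 0.48 over time with stapled-peptide. With the normexp background correction the bound at 48 h was -0.48, under 2-fold. The offset of 50 in that setting shrinks differences between dim signals, so it cannot decide whether this call holds. The remaining NBAT1 probes with a difference at 48 h lay between -0.25 and 0.56. Over the NBAT1 probes the differences ran from -0.30 to 0.94 at 24 h and from -0.61 to 0.96 over time with stapled-peptide.

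**Figure D3:**
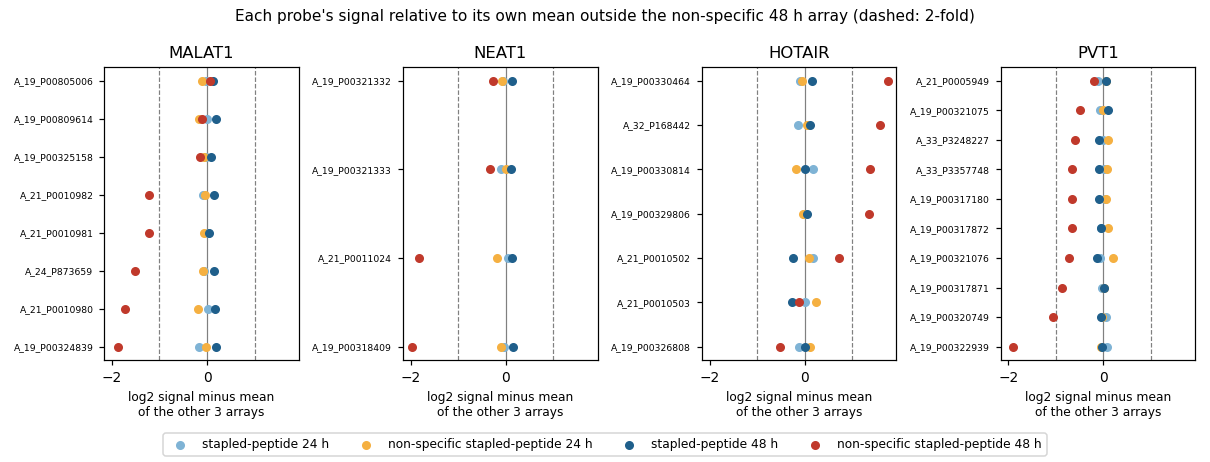
Log2 signal of each probe minus its own mean over the 3 arrays other than non-specific stapled-peptide at 48 h (horizontal axis), 1 row per probe (vertical axis) and 1 colour per array, for MALAT1, NEAT1, HOTAIR and PVT1; dashed lines mark 2-fold. The other 3 arrays sit well inside 2-fold in every row. The red points of non-specific stapled-peptide at 48 h fall past 2-fold in some rows of a gene and within it in others. In the PVT1 panel every red point lies left of 0.

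Probes of the same gene did not give the same difference at 48 h. The range of the difference over the probes of a gene was 1.99 for MALAT1, 1.72 for NEAT1, 2.11 for HOTAIR, 1.59 for PVT1, 2.70 for MIAT and 1.77 for NBAT1, with a median of 1.88 over these 6 genes. It was 0.61 over the 4512 genes with a difference at 2 or more probes, and 1.24 over the 254 at 4 or more. Bounds were counted in all of these ranges, and the NBAT1 range runs to a bound of -1.21. MIAT, NBAT1 and HOTAIR include probes below a signal of 6, where the spot SD of a difference is 0.47, among them the HOTAIR probe with the lowest difference. The direction was shared more than the size in 4 of these genes: 8 of 8 MALAT1, 4 of 4 NEAT1 and 10 of 10 PVT1 differences were negative and 6 of 7 HOTAIR differences positive. These counts include small values, such as -0.06 at a MALAT1 probe with a spot SD of 0.08. Without normalization between arrays the PVT1 median was -0.22 in place of -0.59. The sign of each probe under other scalings was not tested. At 24 h the range was 0.37 for MALAT1, 0.34 for NEAT1, 0.61 for HOTAIR and 0.39 for PVT1, but 2.29 for MIAT and 1.24 for NBAT1, so the faint genes had a wide range at both times. With each gene read by its brightest probe, MALAT1 was past 2-fold (-1.27) and NEAT1 was not (-0.40), although both held probes of either kind. Averaged over its probes, NEAT1 was past 2-fold (-1.23), and HOTAIR (0.91) and PVT1 (-0.75), which were past it at their brightest probes, were not. Probes to 1 transcript share the RNA of the same culture and are not replicates.

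Over time, few member probes were past 2-fold with stapled-peptide and many with non-specific stapled-peptide. With stapled-peptide, 2 of 44 member probes (4.55%) were past 2-fold between 24 h and 48 h, where all 32688 probes gave 3.46%. Both were MIAT probes, A_19_P00322900 at 1.99 and A_19_P00321067 at -1.12. With non-specific stapled-peptide, 18 of 46 (39.1%) were past 2-fold, where all 36162 probes gave 38.4%. Of these, 8 were higher at 48 h (4 HOTAIR probes, 2 MIAT probes, HOTTIP and SNHG1) and 10 were lower (5 of MALAT1, 2 of NEAT1, 2 of PVT1 and 1 of NBAT1). This comparison shares the 48 h non-specific array with the peptide comparison at that time and is no second observation. SNHG1 gave 3.26 in it, and the MALAT1 probes a median of -1.16.

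The other noncoding RNAs moved in both directions at 48 h. Of 30 further named long noncoding RNAs, 23 were matched to a probe and 20 had a difference, 8 of them higher and 6 lower past 2-fold with non-specific stapled-peptide. The median was 0.60, where all 17112 genes had a median of 0.03, with 21.2% higher and 19.8% lower. HOXA11-AS, an antisense transcript of the HOXA cluster, was dim on the first 3 arrays (1.70, 2.85 and 3.25) and read 10.82 on the last, higher by at least 6.93. MIR17HG, the host of a microRNA cluster with growth-promoting roles, read 4.46, 4.99, 5.08 and 9.78. The imprinted transcript H19 went the other way, with 9.04, 8.77, 8.93 and 4.60. MIR31HG, the host of miR-31, read 7.14, 7.35, 6.97 and 3.70 and was dim on the last array, a bound of -3.27. None of these genes was past 2-fold at 24 h.

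**Figure D4:**
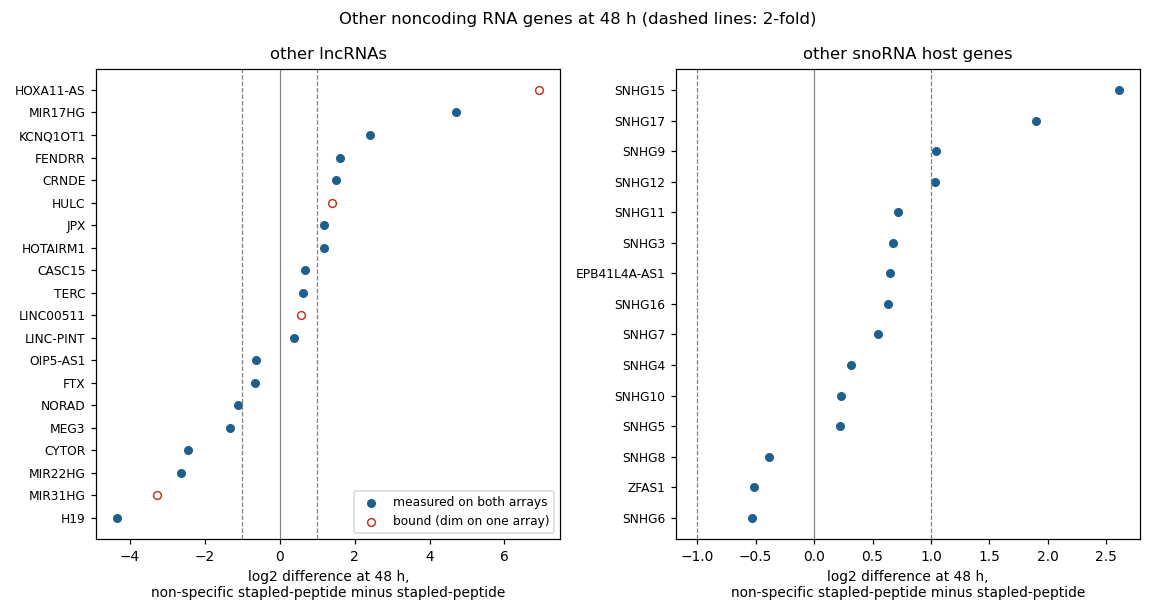
Log2 difference between the peptides at 48 h (horizontal axis) for 20 other long noncoding RNA genes (left) and 15 other snoRNA host genes (right), each at its brightest probe; open red points are bounds and dashed lines mark 2-fold. The left panel has genes far on both sides of 0, whereas in the right panel 12 of 15 genes lie above 0 and none is lower than -0.53.

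Among 15 other snoRNA host genes, all well above background, 4 were higher past 2-fold and 0 lower, with a median of 0.63. Over all 17112 genes 21.2% were higher and 19.8% lower. SNHG15 read 10.74, 10.71, 10.63 and 13.24, and SNHG17 read 9.77, 9.71, 9.76 and 11.66. The lowest were SNHG6 (13.41, 13.37, 13.38 and 12.85) and ZFAS1 (14.72, 14.69, 14.70 and 14.18), at -0.53 and -0.52. SNHG1 at 3.29 was thus above each of these host genes, while GAS5 and DANCR lay among those within 2-fold. With scaling to the 75th percentile 2 of the 15 were past 2-fold. Of the 7 nonsense-mediated decay factors, 2 were higher and 0 lower, with a median of 0.61, beside the same shares over all genes. UPF3B, a part of the exon junction pathway of decay, read 7.55, 7.59 and 7.59 on the first 3 arrays and differed by 3.11 at 48 h. SMG5 differed by 1.08 at its brightest probe and by 0.16 at its other. At the brightest probes the lowest were SMG6 at -0.26 and UPF2 at -0.15, where the UPF2 probes ran from -0.49 to -0.15.

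Of 12 proteins of speckles and paraspeckles, 4 were higher and 0 lower past 2-fold, with a median of 0.62. All genes gave 21.2% higher and 19.8% lower. NONO, a core paraspeckle protein, read 11.65, 11.58, 11.56 and 12.98, and the splicing factor SRSF1 read 5.72, 5.70, 5.92 and 7.36. At their brightest probes the speckle scaffold proteins SRRM2 and SON lay lowest, at -0.93 and -0.76. Probes of the same gene differed here too: SON ran from -0.76 to 0.88 and SRRM2 from -1.23 to -0.93. Every NEAT1 and MALAT1 difference at 48 h was negative, the smallest being -0.06 at a MALAT1 probe. NONO differed by 1.42 at its brightest probe and by 0.47 at its other. Of 9 chromatin partners of HOTAIR and HOTTIP, 1 was higher and 1 lower, with a median of 0.47, beside the same shares over all genes. EZH2, the methyltransferase of PRC2, read 8.84, 8.82, 8.86 and 11.23, and REST, the repressor that recruits CoREST, read 7.84, 7.80, 7.87 and 6.39. WDR5 differed by 0.85 and RCOR1 by -0.27.

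Of 17 genes that neighbour a member on its chromosome, 4 were higher and 1 lower at 48 h, with a median of 0.29. All genes gave 21.2% higher and 19.8% lower. HOXA13, next to HOTTIP, was dim on the first 3 arrays (1.91, 1.88 and 1.90) and read 7.54 on the last, higher by at least 3.65, on the same array as HOTTIP. EVX1, on the other side of HOTTIP, differed by -0.66, and HOXA11, beyond HOXA13, by -0.32. HOXC11 and HOXC12, which flank HOTAIR, were within 2-fold, at a bound of 0.56 and at 0.74. HOXC10, beyond HOXC11, read 4.24, 4.13, 4.35 and 6.40. On the other side of HOTAIR, beyond HOXC12, HOXC13 differed by -0.87. LTBP3, near MALAT1 and NEAT1, read 11.20, 11.02, 11.19 and 7.45. Of the genes on either side of SNHG1, SLC3A2 differed by 1.99 and WDR74 by -0.02. ZBTB37, beside GAS5, differed by -0.99 and USP46, beside DANCR, by 0.82. No gene of these 6 lists was past 2-fold between the peptides at 24 h or over time with stapled-peptide.

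SNHG1 had the widest range over the 4 arrays of the members with a probe well above background on all of them, at 3.29. By the Euclidean distance between mean-centred log2 signals over the 4 arrays, the nearest of 14041 genes were GLA (distance 0.04), CFD (0.06) and PYCR1 (0.07). GLA read 10.90, 10.92, 10.93 and 14.17. With 4 arrays and 1 high value, many genes can have this shape, and the likeness is a description only.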

How the data were processed

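Per the file headers and the labels, the deposited spot intensities came from Agilent Feature Extraction (9.5 in the labels and methods, 10.7.1.1 in the headers) as linear, background-subtracted signals, not normalized between arrays. In the authors' combined table, the deposited intensity of a probe equalled the geometric mean of its unmarked spots. The microarray grid was built on hg19, so no gene positions other than RefSeq's GRCh38.p14 start windows are given.

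Control spots and outlier-marked spots were left out, spots of a probe were averaged as log2, and 50590 of 50599 probes were quantile-normalized over the 4 arrays, as the study's methods state, with a floor of 1. RefSeq accessions named 28168 probes. A gene outside the members was read at its brightest probe by mean signal. For a bound, a dim signal was set to its array's lowest signal among probes well above background unless it already exceeded that, and a bound that then changed direction was dropped. Between 62.5% and 65.7% of spots were well above background and 0 were saturated. The median ratio of signal to background was 4.11 to 4.50.

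The members, lists and settings were chosen with earlier results of these data known. The rule took all 10 members with every probe. Every probe is plotted, and in the text the PVT1, MIAT and NBAT1 probes within 2-fold are mostly given by range and count. Of each other list the 2 highest and 2 lowest genes at 48 h are named, and any gene a sentence turns on. The alternatives were 75th percentile scaling, no normalization, quantile normalization without the divergent array, normexp with an offset of 50, no bounds, probes well above background on both arrays, outlier-marked spots kept, the combined table, a mean over all probes of a gene, and calls at 4-fold and at 100-fold. Python 3.11.15, numpy 2.4.6, pandas 2.3.3, matplotlib 3.10.9 and limma 3.58.1 in R 4.3.3 (normexp) were used. On simulated data for the peptides at 48 h with 50590 probes, 100 of 100 probes changed by 4-fold and 0 of 100 changed by 1.5-fold were past 2-fold, and so were 339 of 32764 unchanged probes with a difference. The simulation held spot error only, with no spread between cultures and no divergent array. Its changed probes came from a range of signal where the spot error is small. It therefore checks the 2-fold rule as computed and not the rate of false calls on real arrays.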

Additional observations from a re-analysis of the deposited data

Results flagged for a closer look

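The MIAT probe A_19_P00321067 was past 2-fold between 24 h and 48 h in opposite directions with the 2 peptides: -1.12 on the log2 scale for stapled-peptide and 1.07 for the non-specific stapled-peptide, a gap of 2.19. With 1 array per condition this difference was not tested. The 4 signals ran from 5.04 to 6.53, and the spot SD of a difference is 0.47 below a signal of 6 and 0.12 from 6 to 9.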

How the results depend on the processing

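No paired analysis was possible because each condition had 1 array, so the conditions shared a single replicate number. Of 318 recomputed differences of member genes at their brightest probe, 301 moved by less than 0.47, 17 moved by more and 0 of those past 2-fold turned. That limit is the spot SD for signals below 6 and is wide for bright probes. MALAT1 at -1.60 with 75th percentile scaling, against -1.27, thus counts as unmoved. Keeping outlier-marked spots and using the combined table gave 38 values each that could hardly move, as no member probe had a marked spot. Of the 17, 10 came with averaging all probes of a gene, under which NEAT1 passed 2-fold at 48 h (-1.23), and PVT1 (-0.75) and NBAT1 (-0.16) no longer did, as also HOTAIR (0.91). The other 7 were HOTTIP and NBAT1 values: with normexp at 48 h HOTTIP was at 0.58 and NBAT1 at -0.48, and without bounds HOTTIP was at 3.69. With normexp the median range over a gene's probes was 1.27, the past-2-fold counts were 3 for gene neighbours and 1 for chromatin partners, and no member probe (0) was past 2-fold at 24 h or over time with stapled-peptide. Normexp also took the share of all probes past 2-fold at 48 h from 37.8% to 19.8%, and the HOTAIR median to 0.86. With it 4 member probes were higher and 8 lower. Its offset of 50 is added to every signal and shrinks differences between dim signals. Lower counts with normexp, and its HOTTIP and NBAT1 values, therefore do not show that a call on a dim probe fails. With 75th percentile scaling 2 snoRNA hosts and 1 decay factor were past 2-fold, and with the mean over probes 1 decay factor. Without bounds 2 member probes passed at 24 h. At 4-fold, 3 member probes passed at 48 h (1 higher, 2 lower), 1 over time with non-specific stapled-peptide and 0 in the other comparisons, and at 100-fold 0 passed in every comparison. In an alternative chosen after seeing the data, only probes with a mean log2 signal of at least 6 were kept, and 0 passed at 24 h and over time with stapled-peptide. Scaling to the 75th percentile shifted the median difference of all probes at 48 h by -0.12, and no normalization by 0.22. Dim probes limit MIAT, NBAT1 and HOTTIP, for which 10 of 25 probes were dim on all arrays.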
